A study of Homo sapiens with 3 samples.

Results

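The ephrins and Eph receptors described here are 10 genes, with 6 ligands (EFNA1, EFNA3, EFNA4, EFNA5, EFNB1 and EFNB2) and 4 receptors (EPHA2, EPHA4, EPHB2 and EPHB4). The genes were taken by name. Their probes were found by matching the transcript accession of each probe to a gene symbol. This gave 13 probes among the 34041 probes measured, for 10 of the 19699 genes that could be named. The remaining 12 genes of the family were measured on 18 probes and are given beside them.

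Ephrins are ligands that stay attached to the membrane of the cell that makes them, so an Eph receptor meets its ligand where cells touch. Ephrin-A ligands are held by a lipid anchor and bind mostly EphA receptors, whereas ephrin-B ligands cross the membrane and bind mostly EphB receptors. Signals run both ways, forward through the kinase of the receptor and backward through the cell that carries the ligand. The family is known for guiding axons and migrating cells, for keeping epithelial cells in place, and for separating arteries from veins through ephrin-B2 and EPHB4.

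The RNA came from PANC-1, a human pancreatic carcinoma cell line, and was hybridised to 1-colour Agilent arrays. The 3 groups were control cells, cells given 20 µM cantharidin for 24 h, and cells given okadaic acid, for which the labels state the same 20 µM and 24 h. The labels do not say whether the control cells received solvent. All groups were the same line in the same serum-containing medium, and each group was 1 array. Both compounds are inhibitors of protein phosphatase 2A (PP2A), and the study asked how they alter genes linked to blood vessel growth. EFNB2 belongs to the angiogenesis genes that the study itself picked on these arrays, so its direction here is not independent evidence. Because there was no replicate, no test was possible, and a gene was called higher or lower at a fold of at least 1.5.

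Intensities are background-subtracted fluorescence values of each array before scaling, given with the error that the scanner software assigned to the spot. Folds and log2 differences were computed after dividing each array by its own 75th percentile, which was 784 in the control, 713 in the cantharidin array and 936 in the okadaic acid array. The same raw intensity therefore stands for less on the okadaic acid array than on the cantharidin array. The number of probes well above background was 24768, 25103 and 23071 in the same order. The ductal and epithelial markers KRT7, KRT8, KRT18, KRT19, MUC1 and SOX9 were well above background on every array, as was the mesenchymal gene VIM. These markers did not move alike: after cantharidin, SOX9 was 7.55-fold lower and KRT18 was 1.99-fold higher on its brightest probe. Of 5 endothelial markers, CDH5 and ERG were well above background on every array, while CLDN5, TEK and the brightest probe of PECAM1 were not on any. Of 5 acinar and islet markers, 4 (PRSS1, CELA3A, INS and GCG) were well above background on every array. A marker signal above background therefore does not by itself identify a cell type here. In bulk RNA, fewer cells of a type and less RNA per cell cannot be told apart. The arrays lay on 1 slide, so the position on the slide and the group cannot be told apart.

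The promoters of 5 members are shown. EFNB1 and EFNB2 rose under okadaic acid, EFNA4 and EPHB4 were the members farthest below control, and EPHA2 was the member whose window held a CRE sequence. Each window runs from 250 bases before the annotated start of the gene to 50 bases after it, 5′ to 3′ on the strand of the gene, from RefSeq on GRCh38.p14. Capitals mark the GC box (GGGCGG) and the CRE (TGACGTCA) on either strand. EFNB1 lies at chrX:68828771-68829070 and EFNA4 at chr1:155063490-155063789, both on the plus strand. EFNB2 lies at chr13:106535613-106535912, EPHB4 at chr7:100827474-100827773 and EPHA2 at chr1:16156020-16156319, all on the minus strand.
EFNB1: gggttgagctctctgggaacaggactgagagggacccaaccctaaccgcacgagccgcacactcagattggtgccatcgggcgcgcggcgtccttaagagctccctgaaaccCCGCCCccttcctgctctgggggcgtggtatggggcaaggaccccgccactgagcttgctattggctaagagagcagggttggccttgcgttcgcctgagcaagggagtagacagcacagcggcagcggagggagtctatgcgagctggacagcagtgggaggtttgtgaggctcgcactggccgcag
EFNB2: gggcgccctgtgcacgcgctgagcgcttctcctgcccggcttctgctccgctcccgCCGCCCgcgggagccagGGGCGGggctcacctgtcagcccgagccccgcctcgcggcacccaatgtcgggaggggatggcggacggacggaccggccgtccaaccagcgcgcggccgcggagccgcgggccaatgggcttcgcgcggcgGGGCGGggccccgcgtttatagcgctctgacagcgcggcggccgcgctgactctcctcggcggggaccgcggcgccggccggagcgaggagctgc
EFNA4: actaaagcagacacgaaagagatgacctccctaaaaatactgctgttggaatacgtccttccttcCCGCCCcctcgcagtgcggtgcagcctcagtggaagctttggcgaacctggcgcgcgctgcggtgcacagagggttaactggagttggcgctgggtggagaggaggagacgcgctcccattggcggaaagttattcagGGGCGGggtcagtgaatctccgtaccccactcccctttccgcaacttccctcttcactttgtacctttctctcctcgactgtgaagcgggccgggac
EPHB4: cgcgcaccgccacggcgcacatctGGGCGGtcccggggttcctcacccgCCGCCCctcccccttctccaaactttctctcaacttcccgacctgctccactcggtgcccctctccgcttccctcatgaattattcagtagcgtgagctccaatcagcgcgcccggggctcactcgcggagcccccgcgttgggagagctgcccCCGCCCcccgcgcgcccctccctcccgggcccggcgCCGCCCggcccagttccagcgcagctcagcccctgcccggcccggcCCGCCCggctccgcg
EPHA2: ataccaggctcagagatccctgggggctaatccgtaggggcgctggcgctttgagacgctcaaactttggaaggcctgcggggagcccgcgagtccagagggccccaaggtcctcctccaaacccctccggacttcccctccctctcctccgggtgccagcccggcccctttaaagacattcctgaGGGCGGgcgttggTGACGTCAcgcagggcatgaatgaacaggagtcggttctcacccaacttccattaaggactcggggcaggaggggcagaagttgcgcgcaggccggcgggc
These windows held 1 GC box in EFNB1, 3 in EFNB2, 2 in EFNA4, 5 in EPHB4 and 1 in EPHA2. Their GC content was 63.7%, 78.7%, 58.3%, 74.3% and 64.3% in that order, against a median of 58.3% over 27305 promoters of the same length. The GC box was present in the windows of 10 of 10 members and in 44.6% of all promoters. The CRE was present in 1 of 10 members and in 1.98% of all promoters. The AP-1 sequence TGACTCA was in 0 of 10 members (4.92% of all promoters) and a 10-base NF-κB consensus in 0 of 10 (0.194%). Motifs were searched on both strands, and a GC box can overlap another GC box. A match is a description of these letters and does not show a bound site.

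**Figure D1:**
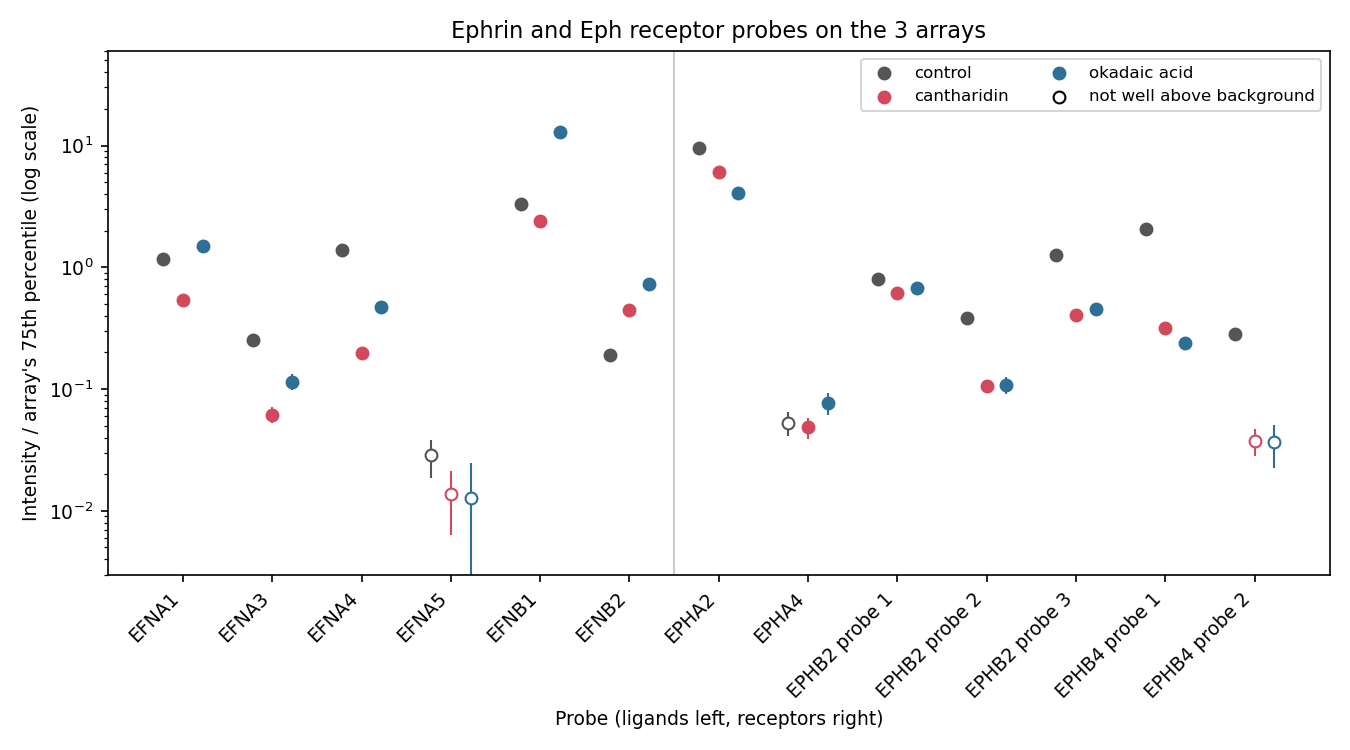
Intensity of each member probe divided by the 75th percentile of its array (log axis), with ligands to the left of the grey line and receptors to the right; bars are the scanner software's error for the spots, cut at the axis for EFNA5, open points were not well above background, and probe 1 of a gene is the brightest on average. EFNB1 and EFNB2 are highest on the okadaic acid array, and both EPHB4 probes are highest on the control array.

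Cantharidin was set against control first, to ask which ligands and receptors differed after treatment with this compound. With each gene represented by its brightest probe, EFNA1, EFNA3, EFNA4, EPHA2 and EPHB4 fell and EFNB2 rose. That is 1 of 9 compared members called higher, where 27.5% of all 16644 genes were, and 5 of 9 called lower, where 34.1% were. The median log2 difference of the 9 was -0.66, against -0.16 over all genes, and ran from -1.10 with the median over probes to -0.31 when centred within blocks of the array. Over the members' probes, 1 of 12 compared was higher and 8 were lower, beside 26.4% and 33.0% of all 26769 probes compared. With 9 genes, these shares were not tested against those of all genes. The tenth gene, EFNA5, an ephrin-A best known from axon guidance, read 22.4 in control, 9.75 after cantharidin and 11.9 after okadaic acid. No array measured it well above background, so it was not compared.

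Okadaic acid was set against the same control array, so the values of the comparisons share that array. EFNA3, EFNA4, EPHA2 and EPHB4 fell and EFNB1 and EFNB2 rose. That is 2 of 9 members higher, where 28.1% of 16166 genes were, and 4 of 9 lower, where 28.8% were. The median log2 difference of the 9 was -0.25, against 0.01 over all genes, and depended on the processing: it was 0.01 without scaling and -1.14 with the median over all probes of each gene. Over the probes, 2 of 12 were higher and 7 lower, beside 26.5% and 27.7% of all 25714 probes.

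The treated arrays were also set against each other at the same labelled dose and time. In okadaic acid relative to cantharidin, EFNA1, EFNA3, EFNA4, EFNB1, EFNB2 and EPHA4 were higher, which is 6 of 9, where 29.5% of 16200 genes were. The count was 3 with normexp background correction or at a 2-fold threshold. None of the 9 members was lower, where 22.3% of genes were, and this count became 1 with median scaling or with the deposited normalized values. The median log2 difference of the 9 was 0.72, against 0.13 over all genes, and 0.38 with normexp or 1.11 without scaling. Over the probes, 6 of 11 compared were higher and 0 lower, beside 28.0% and 22.5% of all 25771 probes. The 3 A-type ligands that could be compared and the 2 B-type ligands were among those higher, together with 1 of the 4 receptors.

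Among the 3 A-type ligands compared, EFNA4 differed most from control under each compound. EFNA4 read 1096 ± 109.8 in control, 141 ± 15 after cantharidin and 446 ± 46.2 after okadaic acid. Control was highest and cantharidin lowest. EFNA4 fell 7.08-fold under cantharidin, a difference of -2.82 on the log2 scale, and 3.61% of the genes compared were lower still. It fell 2.93-fold under okadaic acid (log2 difference -1.55), where it stayed 2.42-fold above the cantharidin array.

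EFNA3, whose gene lies next to EFNA4, read 199 ± 21.2 in control, 43.9 ± 6.77 after cantharidin and 107 ± 16 after okadaic acid. The order of the arrays was that of EFNA4. EFNA3 fell 4.11-fold after cantharidin (log2 difference -2.04) and 2.21-fold after okadaic acid (-1.14). It was 1.86-fold higher after okadaic acid than after cantharidin, a call lost in 2 of 11 alternatives. Transcripts that read through from EFNA4 into EFNA3, or from ADAM15 into EFNA4, share sequence with these genes, so the signals cannot be assigned to a single gene with certainty.

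EFNA1 is a ligand of EPHA2, and its gene is induced by tumour necrosis factor in endothelial cells. It was measured by 10 spots of 1 probe on each array, which shows the spread within an array. In control the spots ran from 851 to 950 with a median of 926 and an SD of 30.3. After cantharidin they ran from 335 to 445 with a median of 388 and an SD of 37.2. After okadaic acid they ran from 1337 to 1483 with a median of 1402 and an SD of 39.7. The sets of spots did not overlap between arrays, and how often this holds for other probes with 10 spots was not counted. EFNA1 fell 2.15-fold under cantharidin, a log2 difference of -1.10, and was 2.75-fold higher after okadaic acid than after cantharidin. Against control, the okadaic acid array was 1.28-fold higher (log2 difference 0.36), short of the call. The spots are repeated measurements of the same RNA and say nothing of the spread between cultures.

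**Figure D2:**
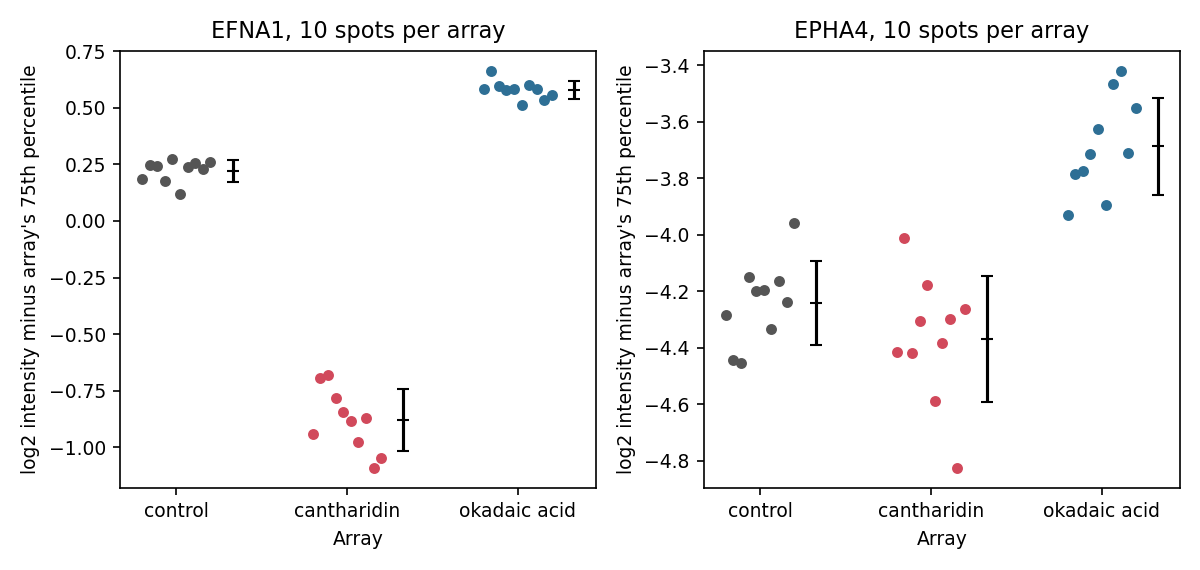
Log2 intensity minus the 75th percentile of the array for the 10 spots of EFNA1 (left) and of EPHA4 (right), with the mean and SD of the spots beside them; the horizontal spread within an array is for display. The EFNA1 spots separate on all 3 arrays, whereas the EPHA4 spots of control and cantharidin overlap.

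Both B-type ligands among the members were called higher under okadaic acid. EFNB1, a transmembrane ligand whose mutation causes craniofrontonasal syndrome, read 2585 ± 259 in control, 1723 ± 172 after cantharidin and 12038 ± 1204 after okadaic acid. The okadaic acid array was far above the other arrays. EFNB1 rose 3.90-fold under okadaic acid (log2 difference 1.96), and 7.52% of the genes compared were higher still. Under cantharidin it was 1.36-fold lower (log2 difference -0.45), which passed the call only with no scaling, at -0.59. Between the compounds it was 5.32-fold higher after okadaic acid, with 2.38% of genes higher still.

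EFNB2, the arterial ligand of EPHB4, read 149 ± 17.3 in control, 317 ± 32.4 after cantharidin and 685 ± 70.1 after okadaic acid. Control was lowest and okadaic acid highest. EFNB2 rose under both compounds, by 2.33-fold after cantharidin (log2 difference 1.22) and by 3.84-fold after okadaic acid (1.94). Of the genes compared, 16.6% stood higher still under cantharidin and 7.64% under okadaic acid. It was 1.65-fold higher after okadaic acid than after cantharidin, a call lost in 3 of 11 alternatives. EFNB2 was the single member called higher under both compounds.

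Immune marker genes were also brighter on the okadaic acid array. Of 4 such genes, 4 were well above background on each array, and their summed intensity was 3313 in control, 2545 after cantharidin and 12058 after okadaic acid, mostly from CD14 at 2535, 1838 and 11044. The summed intensity of the endothelial list was 539, 420 and 664, and its marker CDH5 read 411, 347 and 460. All arrays were of cultured PANC-1 cells, and the source of these marker signals was not tested.

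Among the 4 receptors of the 10 genes, EPHB4 differed most from control under each compound. EPHB4, the venous receptor of ephrin-B2, read 1625 ± 163 in control, 225 ± 23.2 after cantharidin and 223 ± 25.6 after okadaic acid on its brighter probe. Control was high and the treated arrays were low. EPHB4 fell 6.55-fold under cantharidin (log2 difference -2.71) and 8.72-fold under okadaic acid (-3.12). Of the genes compared, 4.06% were lower still under cantharidin and 1.61% under okadaic acid. The treated arrays differed from each other by 1.33-fold, with cantharidin the higher, short of the call.

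The other EPHB4 probe read 224 ± 23.8 in control, and 26.9 and 34.2 on the treated arrays. Neither treated value was well above background. By this probe EPHB4 was 7.57-fold lower after cantharidin, as measured, and at least 4.61-fold lower after okadaic acid. Such a bound divides the bright signal by the faintest reading that still counted as well above background on the dim array. It is given where the dim reading was smaller than that. Where the dim reading was larger, the fold is the measured one and not a bound. EPHB4 and its ligand gene EFNB2 were thus called in opposite directions under both compounds.

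EPHA2, a receptor kinase often abundant in epithelial tumours, read 7491 ± 749 in control, 4303 ± 430.3 after cantharidin and 3827 ± 383 after okadaic acid. Control was highest. EPHA2 fell 1.58-fold under cantharidin (log2 difference -0.66, error 0.20 by the scanner software) and 2.34-fold under okadaic acid (-1.22). The cantharidin call lies close to the threshold, at 0.58 on the log2 scale, and the difference became -0.06 when differences were centred within 16 blocks of the array. The treated arrays differed by 1.48-fold, short of the call.

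EPHA4, a receptor that binds ligands of both types, was dim. Over 10 spots its intensity ran from 35.8 to 50.5 in control, from 25.1 to 44.1 after cantharidin and from 61.4 to 87.5 after okadaic acid. In control 5 of the 10 spots were well above background, against 9 after cantharidin and 7 after okadaic acid, so control counts as not measured above background. The okadaic acid spots lay above all others, but narrowly after scaling. The lowest of them was then at -3.93 and the highest control spot at -3.96 on the log2 scale. How often other probes with 10 spots separate was not counted. EPHA4 was 1.47-fold higher after okadaic acid than in control, with the dim control reading used as measured. This log2 difference of 0.55 was below the threshold. It passed the threshold in 4 of 11 alternatives, which ran from 0.12 to 0.81. It was 1.60-fold higher after okadaic acid than after cantharidin. This last call was lost in 5 of 10 alternatives, with differences from 0.15 to 1.08 on the log2 scale.

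EPHB2, known for positioning cells along intestinal crypts, had 3 probes for the same transcript accession, and they did not move alike. The brightest read 633 ± 63.9 in control, 436 ± 44.0 after cantharidin and 636 ± 65.1 after okadaic acid. Its log2 differences from control were -0.40 and -0.25, both short of the call. The second probe read 300.5 ± 30.9, 75.2 ± 9.19 and 102 ± 15.9, and fell 3.63-fold and 3.51-fold. The third probe read 992 ± 99.5, 292 ± 29.7 and 424 ± 44.2, and fell 3.09-fold and 2.79-fold. On these other probes control was clearly highest. The gene counts above use the brightest probe, so EPHB2 is not among the genes called, and with the median over probes it would be lower under both compounds at -1.63 and -1.48. Where in the transcript each probe lies was not analysed here.

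**Figure D3:**
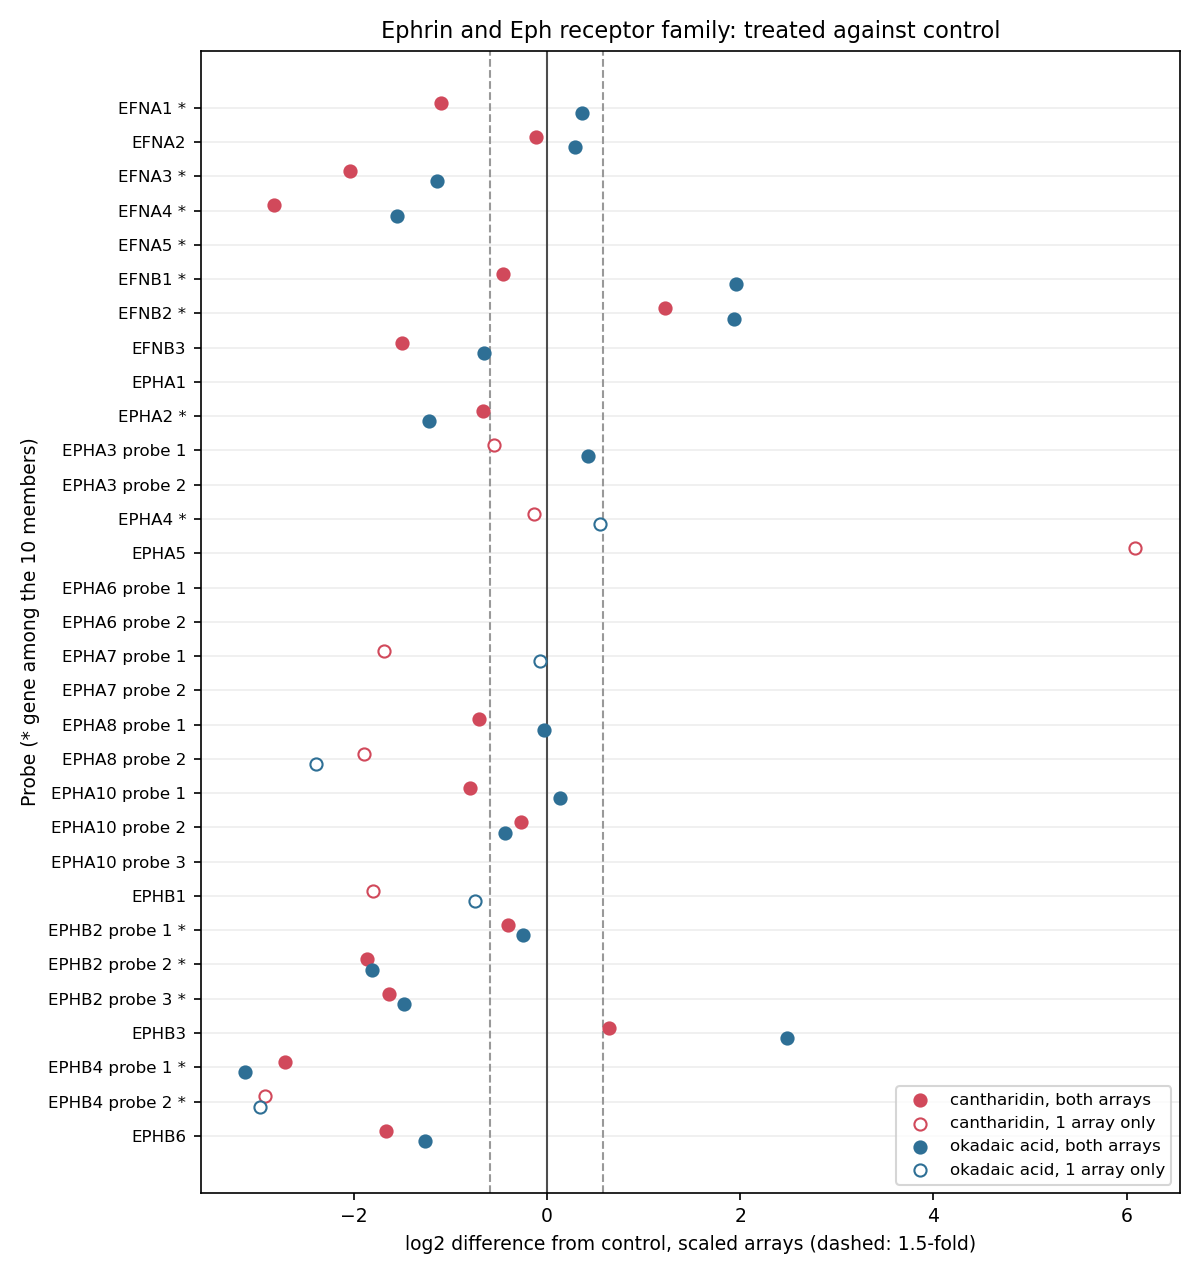
Log2 difference from control of every probe of the family for cantharidin (red) and okadaic acid (blue), with members marked by an asterisk, dashed lines at 1.5-fold, and open points for measured differences where 1 array was not well above background (no point where neither was). EPHB4, EFNA4 and EFNA3 lie left of the lower line for both compounds, and EFNB2 lies right of the upper line for both.

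The other 12 genes of the family were counted in the same way, against the same shares of all genes. Under cantharidin, 2 of 10 compared were higher and 6 lower, with a median of -0.74. Under okadaic acid, 1 of 9 was higher and 3 lower, with a median of -0.03. Of 8 compared between the compounds, 5 were higher after okadaic acid and 1 was lower. EPHA1 and EPHA6 were not well above background on any array. No difference between these genes and the 10 members was tested.

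EPHA5, a receptor best known from neurons, stood out on a single array. It read 9.06 in control, 561 ± 56.4 after cantharidin and 14.5 after okadaic acid. Only the cantharidin array was well above background. EPHA5 was at least 17.6-fold higher after cantharidin than in control and at least 12.7-fold lower after okadaic acid than after cantharidin. It was measured by 1 probe in 1 spot, and 0.21% of genes had a higher measured difference under cantharidin.

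EPHB3, like EPHB2 a receptor of the intestinal crypt, rose under both compounds. It read 78.1 ± 10.9 in control, 111 ± 12.7 after cantharidin and 523 ± 53.9 after okadaic acid. The okadaic acid array was highest by far. The rise of EPHB3 was 1.56-fold after cantharidin and 5.60-fold after okadaic acid, and the cantharidin call was lost in 3 of 11 alternatives. EPHB6, a receptor without kinase activity, read 349 ± 35.7, 101 ± 11.8 and 174 ± 21.4, and fell 3.15-fold and 2.40-fold. Under both compounds EPHB3 therefore rose while EPHB4 and EPHB6 fell.

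EFNB3, the third B-type ligand, read 317 ± 32.6 in control, 102 ± 11.8 after cantharidin and 241 ± 27.3 after okadaic acid. Its fall was 2.83-fold after cantharidin and 1.57-fold after okadaic acid, and this second call was lost in 4 of 11 alternatives. EFNA2, an A-type ligand, read 125, 106 and 183 and was short of the call under both compounds. EFNB3 thus fell under both compounds, where EFNB2 rose under both.

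The remaining receptors were dim. EPHA10, another receptor without kinase activity, read 159 ± 18.1, 83.6 ± 10.7 and 209 ± 25.4, and fell 1.73-fold under cantharidin, whereas its other measured probe differed by -0.27 on the log2 scale. EPHA8 fell 1.62-fold under cantharidin on its brightest probe, which read 71.8, 40.2 and 84.1. The cantharidin calls of EPHA10 and EPHA8 were each lost in 3 of 11 alternatives. The other EPHA8 probe was at least 3.47-fold lower after cantharidin and at least 1.72-fold lower after okadaic acid.

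EPHA7 read 37.1, 10.5 and 42.2, and was at least 1.54-fold lower after cantharidin. EPHB1 read 47.8, 12.5 and 34.2, and was at least 1.99-fold lower after cantharidin. For EPHB1 under okadaic acid no bound above 1 could be given, although its measured difference of -0.74 counts among the 3 genes called lower. EPHA3 read 41.4, 25.6 and 66.7 and was 1.98-fold higher after okadaic acid than after cantharidin, whose reading was not well above background.

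EFNA4, EFNA3 and EFNA1 lie side by side on chromosome 1, and the 5 measured protein-coding genes on each side were read beside them. This window was chosen after the values of the ephrins were seen. Under cantharidin, log2 differences in gene order were -1.07 for FLAD1, 0.95 for LENEP, -0.41 for DCST2, 0.51 for DCST1 and -1.49 for ADAM15, ahead of the ephrins. Behind them they were -0.28 for SLC50A1, -2.37 for DPM3, -0.80 for KRTCAP2, 0.06 for TRIM46 and -0.63 for MUC1. FLAD1, ADAM15, DPM3, KRTCAP2 and MUC1 fell, and DCST2, DCST1, SLC50A1 and TRIM46 were short of the call. LENEP was called higher, but it was not well above background in control and the bound on its rise was at least 1.12-fold.

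Under okadaic acid, ADAM15 read -0.98, SLC50A1 -0.71, DPM3 -1.68, TRIM46 -0.77 and MUC1 -1.02 on the same scale, and these 5 fell. FLAD1 at -0.07, DCST2 at 0.06, DCST1 at 0.27 and KRTCAP2 at -0.05 were short of the call. EFNA1, between EFNA3 and SLC50A1 that both fell, was at 0.36. LENEP was called higher, at a measured difference of 1.76, and was at least 1.96-fold higher than its dim control signal.

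**Figure D4:**
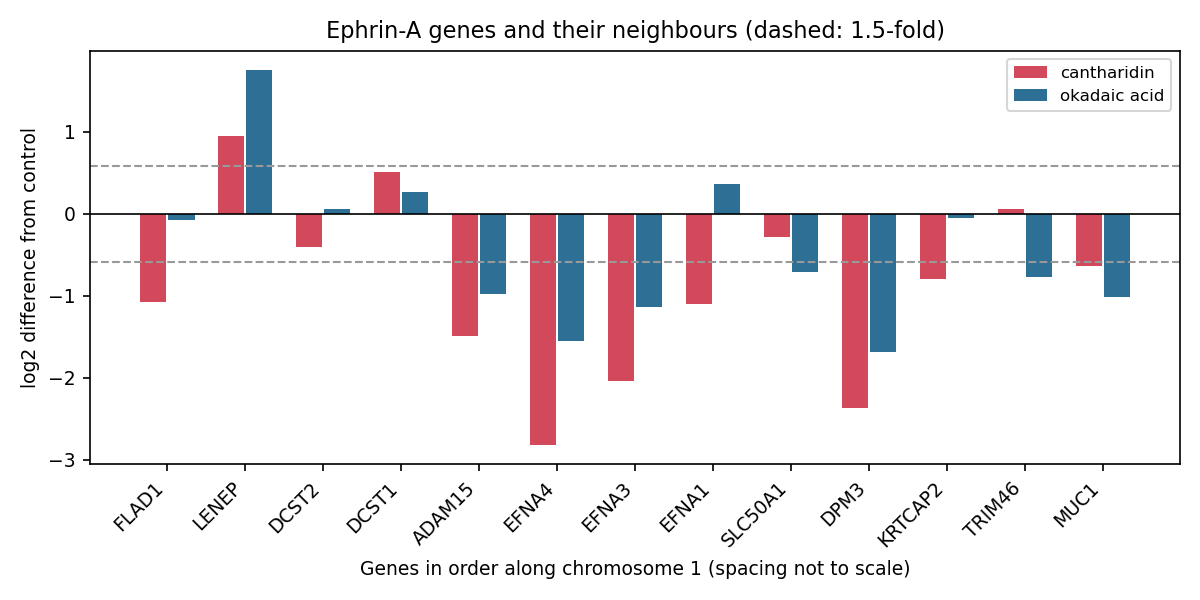
Log2 difference from control of EFNA4, EFNA3, EFNA1 and 5 neighbouring genes on each side, in their order on chromosome 1 (not to scale), for cantharidin (red bars) and okadaic acid (blue bars), with dashed lines at 1.5-fold. EFNA4 has the lowest bar under cantharidin and DPM3 under okadaic acid, and EFNA1 points up under okadaic acid alone.

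Around the ligands and receptors, 36 genes of Eph and ephrin signalling were read by role. Under cantharidin 14 of 36 were higher and 7 lower, with a median of 0.25, and under okadaic acid 14 were higher and 7 lower, with a median of 0.37. The shares over all genes given above are the background for these counts. Of the 6 genes of ephrin-B reverse signalling, 2 were higher and 1 lower under cantharidin, and 4 higher and 1 lower under okadaic acid. Of the 14 exchange factors and GTPase regulators, 6 were higher and 5 lower under cantharidin, and 5 higher and 3 lower under okadaic acid.

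CNKSR1, a scaffold that links ephrin-B1 to downstream kinases, read 284 in control, 1476 after cantharidin and 2871 after okadaic acid. It rose 5.71-fold and 8.46-fold, the largest rise under each compound when each gene is read on its brightest probe. PICK1, a PDZ protein that binds B-type ligands, read 1117, 1122 and 5264 and rose 3.95-fold under okadaic acid. RGS3, a regulator of G proteins that binds ephrin-B, rose 2.64-fold under okadaic acid. DVL2, a Dishevelled protein, fell 1.99-fold after cantharidin and 1.86-fold after okadaic acid.

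Among regulators downstream of the receptors, ARHGEF15, an exchange factor for RhoA that acts with EphB2, read 1669, 7546 and 6608. It rose 4.98-fold after cantharidin and 3.32-fold after okadaic acid. NGEF, an exchange factor that acts with EphA4, rose 3.19-fold under cantharidin, from 9444 to 27398. TIAM1, an exchange factor for Rac, rose 2.63-fold under okadaic acid and 2.52-fold under cantharidin. Falls under cantharidin included ARHGEF16 at 2.88-fold, the exchange factor VAV2 at 1.86-fold and KALRN at 1.54-fold. KALRN was dim, at 56.8 in control and 33.4 after cantharidin. Its log2 difference of -0.63 had an error of 0.36 and lay close to the threshold. RASA1, a GTPase-activating protein for Ras, fell 2.15-fold under okadaic acid, and VAV2 fell 1.81-fold.

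CBL, a ubiquitin ligase that targets activated receptors, read 1964, 9989 and 4259 and rose 5.60-fold under cantharidin. FYN, a Src family kinase, rose 2.90-fold under cantharidin, from 2003 to 5276. The adaptor NCK2 fell 1.87-fold under okadaic acid, whereas its other probe differed by -0.10. Under cantharidin NCK2 was 1.52-fold higher on its brightest probe, and its other probe was short of the call. The kinase ABL1 fell 3.14-fold and 2.07-fold on its brightest probe, but its other probe was higher by 2.75 and 3.48 on the log2 scale. Its direction is therefore not settled by these arrays.

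**Figure D5:**
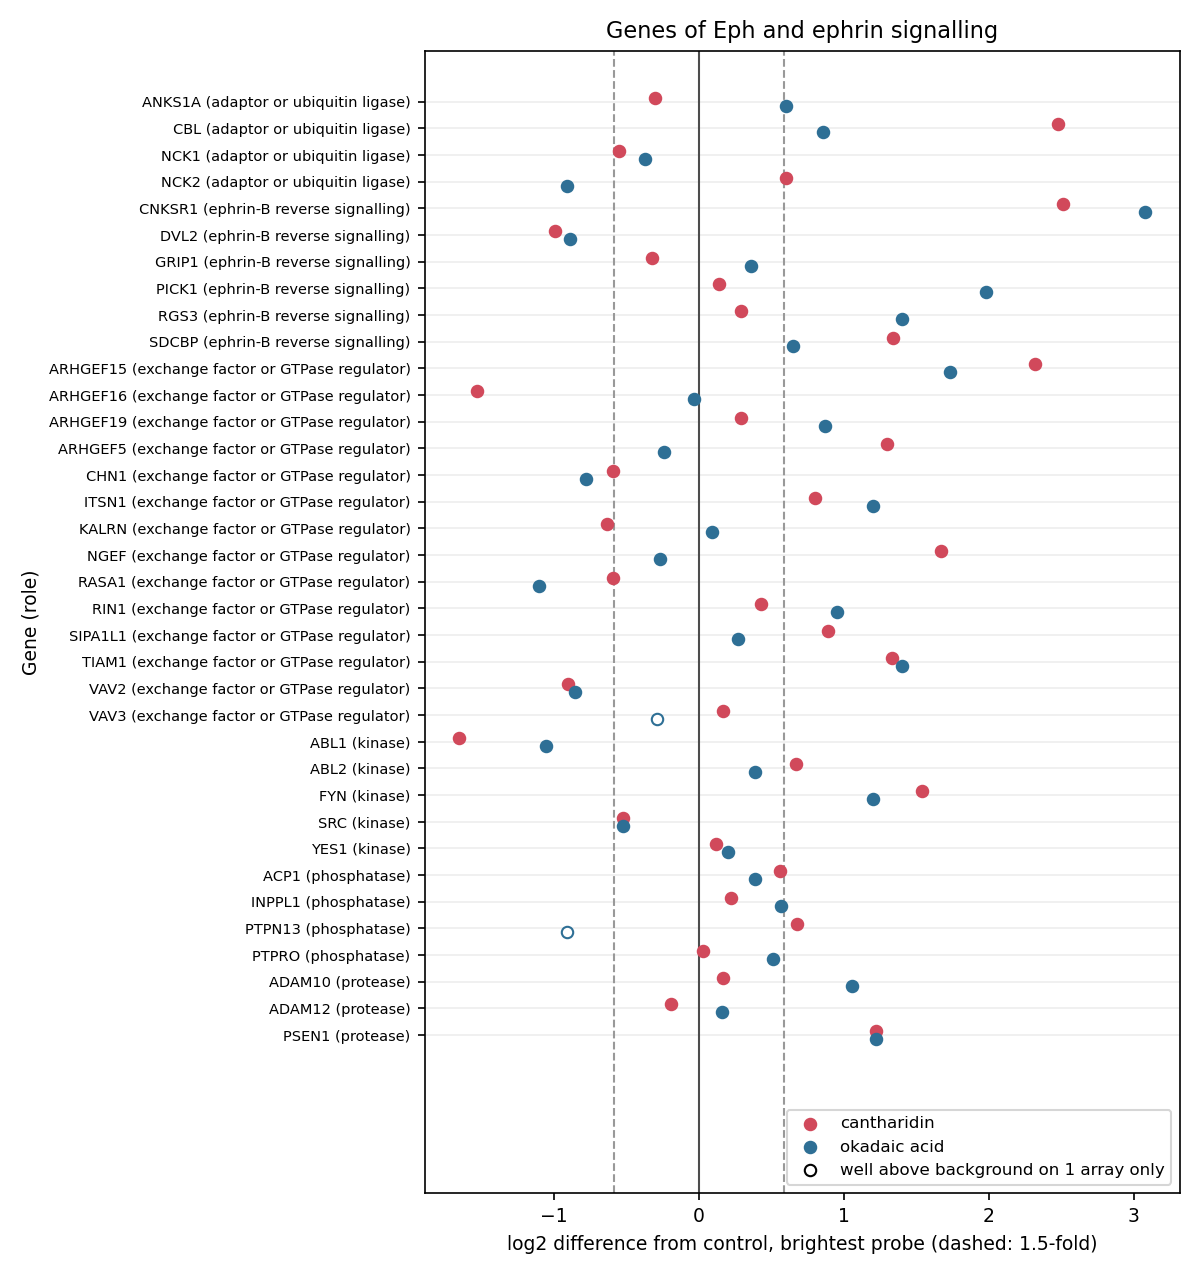
Log2 difference from control of the brightest probe of each of the 36 signalling genes, grouped by role, for cantharidin (red) and okadaic acid (blue), with dashed lines at 1.5-fold and open points where 1 of the arrays was not well above background. CNKSR1 lies farthest right for both compounds, and ABL1 lies farthest left for cantharidin.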

How the data were processed

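Total RNA of PANC-1 cells was labelled with Cy3 and hybridised to 1-colour Agilent arrays, 1 for each of control, cantharidin and okadaic acid, on 1 slide. Sample titles gave the groups. Spot intensity values were deposited by the authors as scanner output of Feature Extraction 11.0.1.1. According to the deposited headers, these intensity values were background-subtracted and detrended, and the annotation used hg19. The authors also deposited normalized log2 values, whose normalization is not given in the sources used here, and these served as an alternative. Flags for outliers, saturation and signal well above background are other deposited columns.

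The log2 intensity was averaged over unflagged spots and scaled by subtracting the 75th percentile of each array. A probe well above background (in most of its spots) on at least 1 of the compared arrays was compared and called at 1.5-fold. No pseudocount and no test were used. The number of arrays limits the precision, and errors are those of the spots. Accessions were matched without version to RefSeq symbols of GRCh38.p14, and no probe or gene body coordinates are given. Promoter windows and gene order are from RefSeq on that build. Where a gene had several probes, the one brightest on average (mean log2 intensity) stood for it. Named genes were the 10 members, every other gene of the family and for each compound and direction, the 5 signalling genes of largest change measured on both arrays. The members and lists were chosen with earlier results of these data known. Alternatives were normexp with an offset of 50 on median intensities, scaling to the median, to the 75th percentile of commonly detected probes (detected-probe scaling) or none, quantile normalization, other filters, the deposited log2 table, a 2-fold threshold, dim signals at the floor, the median over probes and centring within 16 blocks. The counting was tested on simulated data. Software was limma 3.58.1 under R 4.3.3, and numpy 2.4.6, matplotlib 3.10.9 and pandas 2.3.3 under Python 3.11.15.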

Additional observations from a re-analysis of the deposited data

How the results depend on the processing

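No paired analysis was possible because each group was 1 array, and no array could be left out. The 751 values recomputed under alternatives were values of single genes, and counts and medians of the lists. Among the gene values, 30 lost a call, 14 gained one and 469 did neither. EPHB1 in okadaic acid against control was the 1 value past the call that changed sign, to 0.02 with dim signals at the floor. Of the counts and medians, 33 moved beyond a set tolerance and 204 stayed within it. Values short of the call that crossed 0 in at least 1 alternative were those of EPHA4 under cantharidin and of EPHA7, EPHA8, EPHA10 and EPHB2 under okadaic acid. EFNA3, EFNA4, EFNB2 and EPHB4 kept their calls against control under both compounds in all 12 alternatives. So did EFNA1 under cantharidin and EFNB1 and EPHA2 under okadaic acid. Some alternatives could not change these values. Their brightest probes were well above background on all arrays, so other filters and dim signals at the floor return the main value. The median over probes does the same for a gene with 1 probe, as all of these except EPHB4. Without scaling, the median of all genes moved from -0.16 to -0.30 for cantharidin and from 0.01 to 0.26 for okadaic acid.

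The members' median under cantharidin was -0.31 when centred within blocks, -1.10 with the median over probes and -0.88 with signal on all arrays. For okadaic acid the median was -1.14 over probes, -0.70 with no filter or with signal on all arrays, and 0.01 without scaling, where 4 genes were higher. Between the compounds, 3 were higher at 2-fold or with normexp and 1 lower with the deposited log2 table or median scaling, and the median was 1.11 without scaling and 0.38 with normexp.

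For the rest of the family under cantharidin, 1 was higher at 2-fold, without scaling, with normexp or with signal on all arrays, and with normexp 2 were lower with a median of -0.32. Under okadaic acid, 2 were higher without scaling, with a median of 0.23, and 1 was lower at 2-fold, without scaling or with normexp. Of the signalling genes at 2-fold, 9 were higher and 2 lower under each compound. Under cantharidin 4 were lower with normexp, quantile normalization or detected-probe scaling. Under okadaic acid the median was 0.63 without scaling. The causes were not tested. Signals near background, as of EPHA4, are limited by spot noise, with a median SD over dim probes of 0.184 to 0.23 on the log2 scale.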
